A study of Mus musculus with 2 samples.

Results

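The endothelin genes described here are 5 of the 31053 genes in the deposited count matrices: the ligand genes Edn1 and Edn3, the receptor genes Ednra and Ednrb, and Ece1, which encodes the enzyme that cuts the inactive ligand precursor into the active peptide. They were chosen by name, and their UMIs (unique molecular identifiers, each standing for a captured transcript) were counted in every barcode with at least 2000 UMIs and under 10% mitochondrial UMIs. The aorta-gonads-mesonephros (AGM) region, in which the first hematopoietic stem cells form beside the dorsal aorta, was taken from mouse embryos at embryonic day 11 and run on the 10x Chromium system. 1 library came from PDGFRβ+/+ embryos (WT) and 1 from PDGFRβ-/- embryos (KO), from a constitutive knockout of the platelet-derived growth factor receptor β gene that was kept as heterozygotes on a C57BL/6J background. How many embryos each library holds is not given in the sources used here. The comparison asks which cells of the AGM made the ligands and which made the receptors, and how these levels stood in the KO library.

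Each genotype had 1 library, so no test was possible, and genotype, embryo and library cannot be told apart. All intervals below are exact 95% intervals that cover counting error only. The rule kept 8253 of 9207 WT barcodes and 8165 of 9157 KO barcodes, with medians of 13321 and 12391 UMIs. The targeted gene, Pdgfrb, was at 43.1 CPM in WT (UMIs of the gene in every 1000000 UMIs of the cells counted) against 7.09 CPM in KO, lower in the KO library but not at 0. The study took KO cells with detected PDGFRβ out before its comparisons. The KO values here keep them unless stated. Leaving out KO barcodes with a Pdgfrb UMI would keep 7364 of the 8165. Xist was at 793 CPM in WT against 0.415 CPM in KO, and Y-linked genes were at 0.0266 and 163 CPM, so the libraries also differed in the sex of the embryos. The libraries shared 20 kept barcodes.

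Endothelins are short vasoactive peptides that are cut from long precursors, first by furin-type proteases and then by endothelin-converting enzyme. The receptor encoded by Ednra prefers endothelin-1, and the receptor encoded by Ednrb binds all endothelins alike. In blood vessels, endothelin-1 from the endothelium acts on the surrounding smooth muscle through the former receptor, and in the embryo endothelin-3 acts through the latter on neural crest cells that become melanocytes and enteric neurons.

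The genes lie apart in the genome (GRCm38, GENCODE M21). Edn1 spans chr13:42301476-42307990 and Edn3 spans chr2:174760619-174784042, both on the plus strand, and Ece1 spans chr4:137862237-137965229 on the plus strand. Ednra spans chr8:77663031-77724464 and Ednrb spans chr14:103814625-103844402, both on the minus strand. The ligands differ in only a few positions of the mature peptide, which is coded within exon 2 of each gene, and these positions separate the ligand that both receptors take from the one that Ednrb takes far better. The coding sequences of the 21 residues are shown on the plus strand, 5′ to 3′, with capitals where a base differs from Edn1, and with the remaining ligand gene of the family, Edn2, for comparison.
Edn1 (chr13:42303649-42303711): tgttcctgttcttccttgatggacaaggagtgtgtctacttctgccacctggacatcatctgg
Edn2 (chr4:120161951-120162013): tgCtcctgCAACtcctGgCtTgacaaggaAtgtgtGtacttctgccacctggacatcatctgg
Edn3 (chr2:174761749-174761811): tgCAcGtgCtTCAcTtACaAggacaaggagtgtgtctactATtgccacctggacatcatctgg
Edn3 shared 50 of 63 bases and 15 of 21 residues with Edn1, and Edn2 shared 53 bases and 18 residues. The last part of each sequence, from the tgccac onward, was identical in the 3 genes.

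Cells were sorted into classes by 6 marker genes per class, with at least 3 of the 6 detected and no other class with as many. Of the 12 classes, 10 held at least 20 cells in both libraries: 96 WT and 95 KO endothelial cells, 175 and 146 macrophages, 736 and 219 erythroid cells, 168 and 142 Schwann precursors, 97 and 87 autonomic neurons, 135 and 312 muscle progenitors, 746 and 515 mural cells, 949 and 1526 sclerotome cells, 1004 and 655 splanchnic mesenchyme cells and 141 and 85 coelomic epithelium cells. A further 3680 WT and 4050 KO barcodes passed no gate and are called ungated. The mesenchymal classes are ranges rather than sharp types. In the mural class, 325 of 746 WT cells and 227 of 515 KO cells had no more than the required 3 markers, and the median mural cell also had 2 of the 6 splanchnic markers. In the coelomic epithelium class the median cell also had 2 splanchnic markers. The muscle progenitor class was led by muscle fibre genes such as Ttn and Myh3 in both libraries, so its name covers differentiating cells too. The 6 endothelial markers, from Cdh5 to Esam, were present in all endothelial cell sums, and among the markers of other classes there those of autonomic neurons had the highest sum, with 220 CPM in WT and 214 CPM in KO and a UMI in 57.3% and 53.7% of endothelial cells. Mural markers summed to 77.2 CPM in WT and 31.6 CPM in KO.

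Edn1, the ligand gene of the endothelium, stood at 52.6 CPM in WT endothelial cells (45.1 to 61.0) against 33.9 CPM in KO endothelial cells (28.7 to 39.9). This was the highest class in both libraries, 8.73 times above the next class in WT and 5.13 times in KO. Endothelial cells made up 1.16% of kept barcodes in either library, yet held 44.1% of the WT and 52.9% of the KO Edn1 UMIs. The second WT class was the mural cells, with 6.02 CPM (4.98 to 7.22), against 3.40 CPM (2.55 to 4.45) in KO mural cells. Coelomic epithelium, the layer that lines the body cavity, was at 3.71 CPM in WT against 6.62 CPM in KO, and its interval overlapped that of the mural cells in WT and in KO. In WT, macrophages, autonomic neurons and muscle progenitors had no Edn1 UMI at all, which in macrophages allows up to 0.807 CPM by the level that 3 UMIs give. The endothelial WT level depended on the cells kept. It was 13.9 CPM with the mitochondrial limit at 5%, which left 33 cells. It was 100 CPM after every barcode was thinned to 2000 UMIs and gated again, which left 70 cells.

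Edn1 was carried by few cells. An Edn1 UMI was seen in 35 of 96 WT endothelial cells (36.5%, 26.9 to 46.9%) and in 31 of 95 KO endothelial cells (32.6%, 23.4 to 43.0%), against 1 of 736 WT erythroid cells (0.136%), which should lack it. The median depths were 28069 UMIs in WT and 33456 in KO endothelial cells, and 16766.5 UMIs in WT erythroid cells. With each cell thinned to 2000 UMIs the shares were 11.5% and 7.37%. In both libraries 5 cells carried a large part of the endothelial signal, 78 of 175 UMIs in WT and 77 of 148 in KO, with at most 24 and 22 UMIs in a cell.

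The arterial and venous sides of the endothelium differed in the ligand and in the receptor, in opposite directions. Endothelial cells were split by 6 arterial markers such as Gja5 and Dll4 and 6 venous markers such as Nr2f2 and Aplnr, which gave 23 arterial and 64 venous cells in WT and 11 and 74 in KO. Edn1 was at 180 CPM (145 to 221) in WT arterial cells and 31.0 CPM (24.6 to 38.5) in WT venous cells, a log2 ratio of 2.54 (2.09 to 2.99). In KO the values were 224 CPM (175 to 282) and 19.7 CPM (15.5 to 24.8), a log2 ratio of 3.50 (3.01 to 3.99). Ednrb showed the reverse order. In WT it was at 11.9 CPM in arterial against 77.3 CPM in venous cells (log2 ratio -2.70, -4.17 to -1.56). In KO it was at 9.45 against 40.0 CPM (-2.08, -4.38 to -0.51). The arterial values rested on 6 WT and 3 KO UMIs. Ece1 was higher on the arterial side, at 166 against 85.3 CPM in WT and 148 against 92.9 CPM in KO. Edn3 had no UMI in arterial cells of either library, with upper 95% limits of 7.30 CPM in WT and 11.6 CPM in KO. The venous levels of 3.44 and 3.16 CPM lay under these limits, so these counts do not separate the sides. Arterial cells were shallower than venous ones, with medians of 12623 against 38238.5 UMIs in WT.
The genes with the largest excess in Edn1-positive endothelial cells, named after their values were seen, included the elastic fibre genes Eln (98.9 against 4.14 CPM in WT, 101 against 2.06 CPM in KO) and Fbln5, and Vwf, the von Willebrand factor (352 against 50.2 CPM in WT, 189 against 19.4 CPM in KO). The erythroid globin genes Hba-x and Hbb-y were among them too, and their part was not tested. The Edn1-positive endothelial cells were deeper, with medians of 30505 against 22645 UMIs in WT and 58969 against 28129.5 UMIs in KO.

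**Figure D1:**
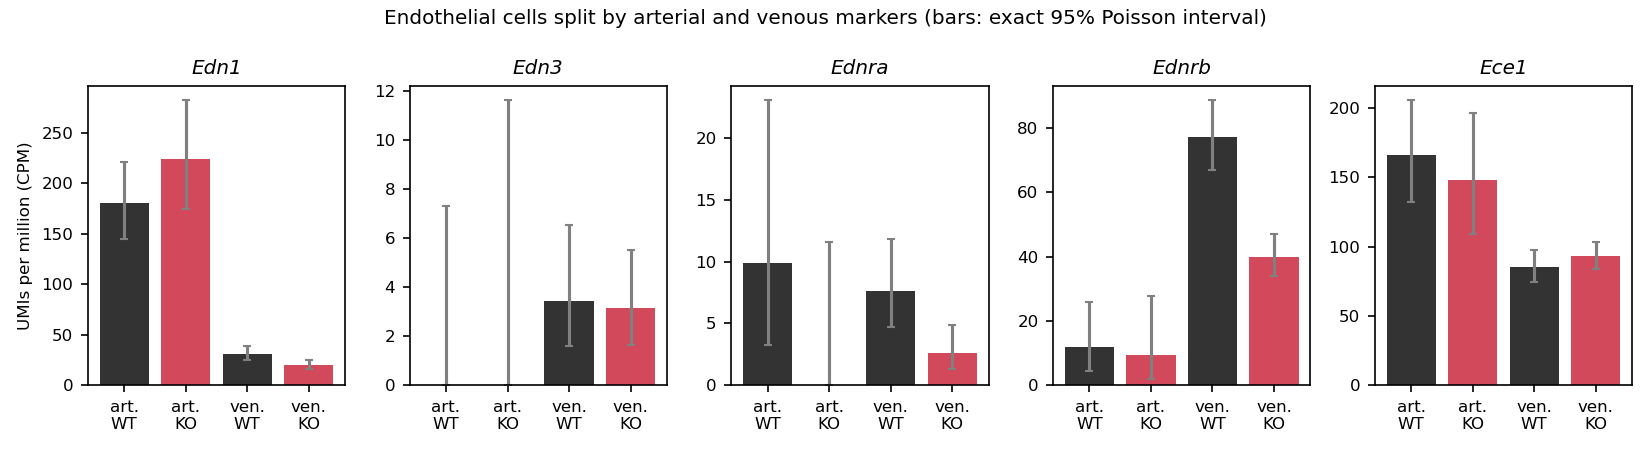
CPM of the 5 genes (vertical axes, linear from 0) in arterial and venous endothelial cells of WT (black) and KO (red), with exact 95% Poisson intervals. Edn1 stands at 180 and 224 CPM in the arterial bars against 31.0 and 19.7 CPM in the venous bars, while Ednrb is higher in the venous bars.

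The split also bears on the KO ratio of Edn1, which over all endothelial cells was -0.63 on the log2 scale (-0.96 to -0.31). Within arterial cells the KO over WT ratio was 0.31 (-0.16 to 0.78), and within venous cells it was -0.65 (-1.12 to -0.18). Arterial cells were 23 of the 96 WT and 11 of the 95 KO endothelial cells, and the part of this mix in the class ratio was not tested. With the mitochondrial limit at 5%, which left 33 WT and 27 KO endothelial cells, the class ratio was 0.32 for Edn1 and 0.71 for Ednrb. Ednrb in venous cells had 77.3 CPM in WT against 40.0 CPM in KO, a ratio of -0.95 (-1.26 to -0.64). An Ednrb UMI was seen in 60.9% of WT and 58.1% of KO venous cells.

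The mural cells that carried Edn1 had more contractile transcripts than the others. They were 50 of 746 cells in WT and 24 of 515 in KO, and 17 of the 50 and 5 of the 24 also had a UMI of an endothelial marker, against 216 of 746 and 130 of 515 mural cells overall. Of the 6 endothelial markers in the WT Edn1-positive cells, Cdh5, Pecam1 and Tek were at 1.08, 0.541 and 1.08 CPM, and Kdr, Emcn and Esam at 11.4, 4.87 and 5.41 CPM, against 21.4, 5.28 and 3.73 CPM in the Edn1-negative cells. In KO the first 3 were at 0 and the others at 1.20, 2.40 and 3.603 CPM. The part of endothelial RNA in mural Edn1 was not tested. The genes with the largest excess in Edn1-positive over Edn1-negative mural cells in both libraries, named here after their values were seen, were Ankrd1, Ctgf, Cnn1, Tagln, Hbegf, Itga1, Flt1 and Actg2. Flt1, a VEGF receptor of the endothelium, was at 70.8 against 12.8 CPM in WT and 48.0 against 9.70 CPM in KO. Cnn1, a calponin of smooth muscle, was at 298 against 76.1 CPM in WT and 306 against 76.0 CPM in KO. Tagln, an actin-binding protein of smooth muscle, was at 4015 against 1187 CPM in WT and 3516 against 973 CPM in KO. Ctgf, a matricellular protein and target of YAP signaling, was at 164 against 29.0 CPM in WT and 141 against 30.5 CPM in KO. Acta2 was at 6910 against 2405 CPM in WT. The pericyte gene Rgs5 was at 132 against 127 CPM in WT and 133 against 98.8 CPM in KO. Cspg4 was at 42.2 against 23.5 CPM in WT and 55.2 against 27.2 CPM in KO. Pdgfrb was at 160 against 101 CPM in WT. Tagln and Acta2 are among the 6 markers of the mural gate, and the Edn1-positive cells were deeper (medians of 30561 against 17901.5 UMIs in WT).

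The study divides the WT stroma by PDGFRβ and NG2 (the product of Cspg4), with stained sections, clusters of cells and a sort on the proteins. The counts here use its names for a simpler split, by a UMI of Pdgfrb and of Cspg4, so the groups need not hold the same cells. The split covers ungated, mural, sclerotome and splanchnic mesenchyme barcodes. Edn1 was at 7.16 CPM (5.73 to 8.84) for the 375 cells with a UMI of both genes (DP), 1.05 CPM in the 2045 cells with Pdgfrb only (PDGFRβ-S), 0.747 CPM in the 239 cells with Cspg4 only (NG2-S) and 0.467 CPM in the 3720 cells with neither (DN). The DP level was above the PDGFRβ-S level by 2.77 (2.24 to 3.31) on the log2 scale. Ece1 was also highest in DP cells, with 28.1 CPM, against 20.7 CPM in PDGFRβ-S cells. In NG2-S and DN cells it was at 11.96 and 14.5 CPM, and their log2 ratio of -0.28 (-0.73 to 0.15) included 0. Ednra was at 47.9 and 50.5 CPM in DP and PDGFRβ-S against 37.1 and 36.7 CPM in NG2-S and DN, and the DP to PDGFRβ-S ratio of -0.08 (-0.21 to 0.05) included 0. Edn3 was at 13.1, 17.2, 13.5 and 14.0 CPM in the same order of gates. The DP cells had a median of 22660 UMIs and the DN cells one of 9119.5 UMIs. The part of depth in these gates was not tested.

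Edn3, the ligand gene linked to crest-derived cells, was highest in the mesenchymal classes, the coelomic layer, ungated cells and muscle progenitors. In WT it was at 16.7 CPM (15.1 to 18.3) in splanchnic mesenchyme, 16.4 in coelomic epithelium, 16.2 in sclerotome, 15.8 in ungated cells, 12.2 in muscle progenitors and 11.8 in mural cells, and the intervals of neighbours in this order overlapped. The remaining 5 classes, including endothelial cells, were at 1.68 to 3.02 CPM. In KO the same 6 classes ranged from 15.5 to 22.1 CPM, and the remaining 5 from 1.26 to 7.12 CPM. In no cell was it abundant: at most 12 UMIs were counted in a WT cell, and 26.8% of WT and 32.4% of KO splanchnic mesenchyme cells had a UMI, against 1.90% and 2.28% of erythroid cells (medians of 18608.5 and 18329 UMIs against 16766.5 and 19554 UMIs).

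Ednra, the endothelin-1 receptor gene, was also mesenchymal, with its peak in the mural class. Its WT levels were 52.6 CPM (49.5 to 56.0) in mural cells, 44.9 in ungated cells, 44.2 in splanchnic mesenchyme, 33.2 in sclerotome, 29.5 in coelomic epithelium and 23.8 in Schwann precursors. The mural interval stood above the next class in WT, but in KO the mural level of 46.7 CPM overlapped that of splanchnic mesenchyme at 41.3 CPM. Endothelial cells, the main source of Edn1, were at 7.51 CPM in WT against 3.44 CPM in KO. Among WT mural cells 57.0% had an Ednra UMI, and 55.9% of KO mural cells, against 5.30% and 4.11% of erythroid cells. After thinning these were 9.38% and 8.74%, against 0.815% and 0.913%.

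Ednrb was concentrated in Schwann precursors, the crest-derived glial cells along nerves, with 661 CPM in WT (638 to 685) against 827 CPM in KO (799 to 856). The WT level was 467 CPM with the mitochondrial limit at 5%, which kept 45 cells. It was 1250 CPM when barcodes were thinned and gated again, which left 40 WT cells in the class. At full depth, Schwann precursors held 65.7% of the WT and 71.0% of the KO Ednrb UMIs. A UMI was present in 157 of 168 WT cells (93.5%) and 136 of 142 KO cells (95.8%), and after thinning in 61.3% (53.5 to 68.7%) and 71.1% (62.9 to 78.4%), where 0.272% of thinned WT erythroid cells had one. Per cell, the median was 630 CPM in WT against 840 CPM in KO, and the highest cells had 75 and 144 UMIs. Ednrb was among the 10 leading genes of the class in both libraries although it took no part in the gate. Of 70 WT Schwann precursors with an Ednra UMI, 68 also had an Ednrb UMI, and in KO 41 of 42 did, where 93.5% and 95.8% of the class had one. A further 10 WT and 13 KO barcodes tied between Schwann precursor and autonomic neuron, held 140 and 347 Ednrb UMIs and stand outside both classes.

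**Figure D2:**
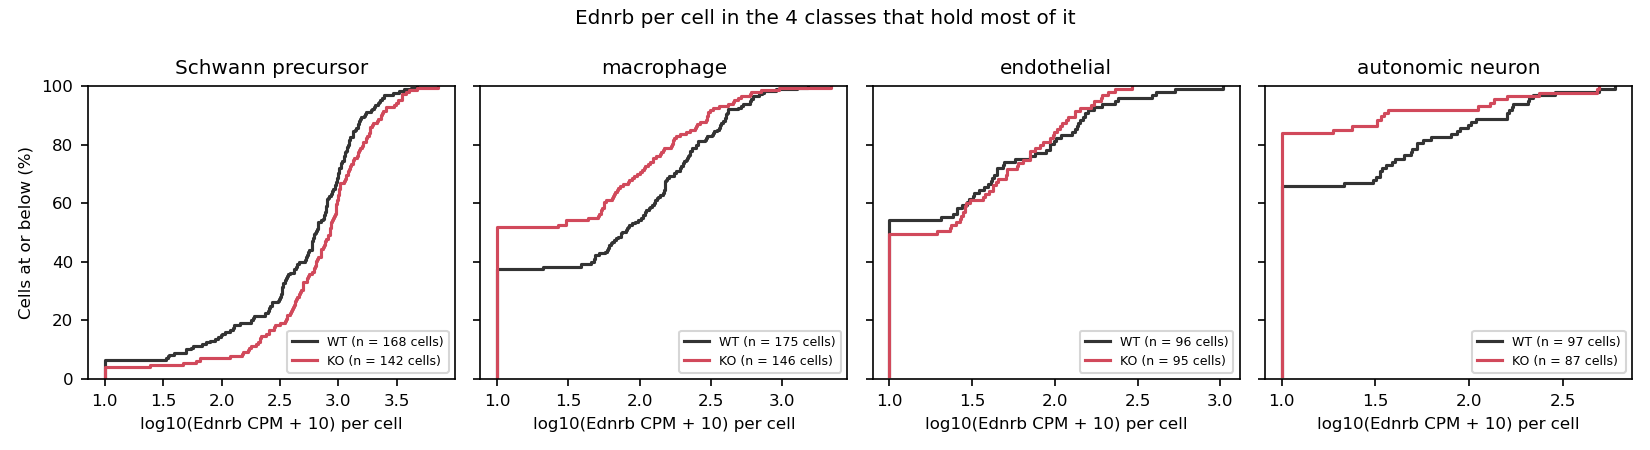
Share of cells (vertical axis, %) at or below each Ednrb level per cell (horizontal axis, log10 of CPM + 10) in 4 classes of WT (black) and KO (red). A curve that starts high has many cells without a UMI: the KO macrophage curve starts above the WT one, and the KO Schwann precursor curve lies to the right of the WT one.

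Macrophages came next, with 155 CPM in WT (143 to 169) against 116 CPM in KO (104 to 130), and their intervals overlapped neither neighbour in the order of classes. Ednrb was detected in 109 of 175 WT macrophages (62.3%) and 70 of 146 KO macrophages (47.9%), and in 23.4% (17.4 to 30.4%) and 11.6% (6.93 to 18.0%) after thinning. Markers of Schwann precursors summed to 9.14 CPM in WT against 16.9 CPM in KO macrophages, with 1 of the 6 at 0 in each, against 1023 and 1033 CPM in Schwann precursors. With cells that held a UMI of any endothelial or Schwann precursor marker left out, an alternative chosen after seeing the data, WT macrophages were at 188 CPM.

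Macrophages with and without an Ednrb UMI differed in other genes. The largest excess in both libraries, again named after the values were seen, was in Lyve1, Hmox1, Ccl24, Fcna, Folr2, Stard8, Slc40a1 and Hira. Lyve1, a hyaluronan receptor of tissue-resident macrophages, was at 188 against 32.1 CPM in WT and 101 against 10.1 CPM in KO. Hmox1, which breaks down heme, was at 468 against 144 CPM in WT and 585 against 163 CPM in KO. Slc40a1, the iron exporter ferroportin, was at 157 against 84.0 CPM in WT and 191 against 91.6 CPM in KO. Folr2, a folate receptor of resident macrophages, was at 69.0 against 27.6 CPM and 51.3 against 23.1 CPM. The Ednrb-positive macrophages had a median of 21297 UMIs in WT against 11191.5 UMIs for the others.

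**Figure D3:**
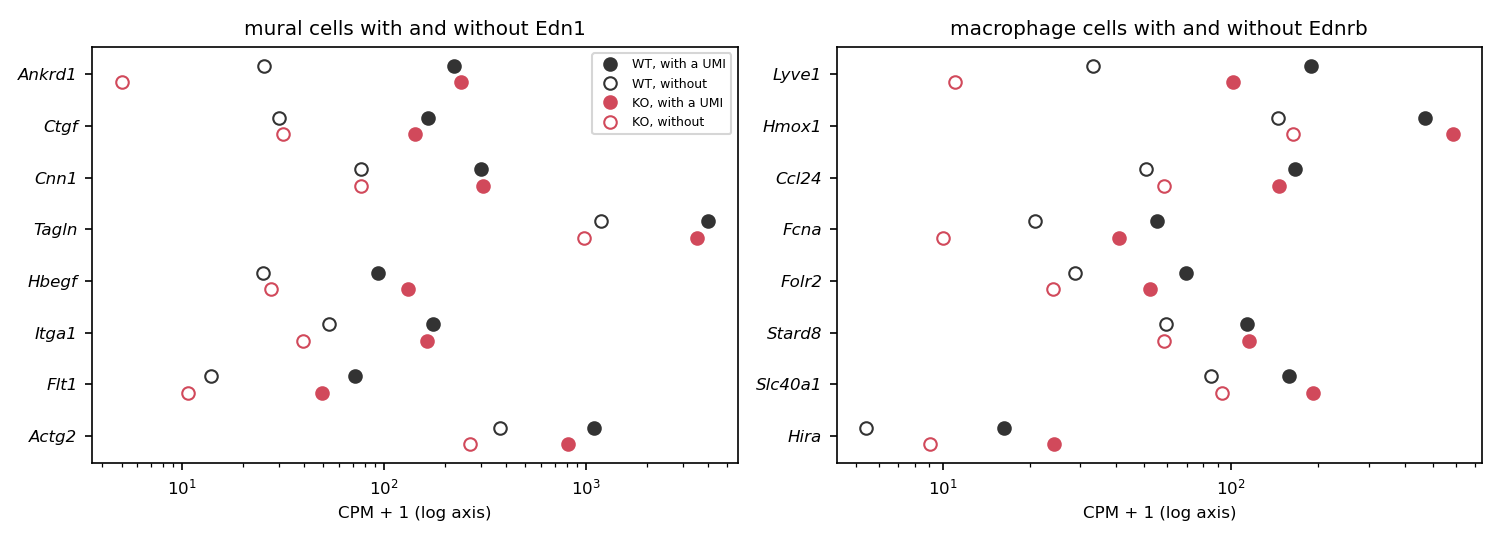
CPM + 1 (horizontal log axes) of the 8 genes with the largest excess in both libraries, in mural cells with (filled) and without (open) an Edn1 UMI and in macrophages with and without an Ednrb UMI, WT in black and KO in red. Filled points lie to the right of the open ones in both libraries for every gene shown, which is how the genes were chosen.

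Endothelial cells and autonomic neurons were the remaining classes with appreciable Ednrb, and their intervals overlapped in both libraries. Endothelial cells were at 63.1 CPM in WT against 36.5 CPM in KO, and neurons at 57.5 and 39.9 CPM. The share of endothelial cells with an Ednrb UMI did not fall with the level. It was 45.8% (44 of 96) in WT and 50.5% (48 of 95) in KO, and 5.21% and 5.26% after thinning. A few cells held much of the endothelial signal, 96 of 210 UMIs in 5 WT cells and 61 of 159 in 5 KO cells. In neurons the signal came with glial transcripts: Schwann precursor markers summed to 157 CPM in WT against 83.3 CPM in KO neurons, and 29 of the 33 WT and 12 of the 14 KO neurons with an Ednrb UMI also had a Schwann precursor marker, against 53 of 97 and 25 of 87 neurons overall. Of 176 WT neuron UMIs, 93 lay in 5 cells. The part of glial RNA in this level was not tested. In endothelial cells the Schwann precursor markers summed to 4.81 CPM in WT against 2.98 CPM in KO, with 4 and 3 of the 6 at 0, while autonomic neuron markers, given above, were at 220 and 214 CPM with 3 and 1 of the 6 at 0. Their part in endothelial Ednrb was not tested. The genes with the largest excess in Ednrb-positive endothelial cells, named after their values were seen, began with Pf4 and Lhx6. Pf4 was at 120 against 8.14 CPM in WT and 32.8 against 8.68 CPM in KO. It was also among the 10 leading genes of megakaryocytes in both libraries. Stab2, a scavenger receptor of sinusoidal endothelium, was at 15.8 against 5.42 CPM in WT and 13.5 against 2.48 CPM in KO. The Ednrb-positive endothelial cells were deeper, with medians of 50280.5 against 15373 UMIs in WT and 54432.5 against 18081 UMIs in KO. Ednrb was under 8 CPM in each remaining class compared.

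Ece1 was detected in every class and was highest in endothelial cells, with 101 CPM in WT (90.7 to 113) against 98.1 CPM in KO (89.1 to 108). Coelomic epithelium followed at 37.9 and 34.2 CPM, splanchnic mesenchyme at 27.6 and 27.5 CPM and mural cells at 22.1 and 22.0 CPM, and the intervals of these 4 classes were apart in WT while coelomic epithelium overlapped splanchnic mesenchyme in KO. An Ece1 UMI was present in 78.1% of WT and 80.0% of KO endothelial cells, against 2.58% and 2.28% of erythroid cells. Of 35 WT endothelial cells with an Edn1 UMI, 32 had an Ece1 UMI as well, and 27 of 31 in KO, where 78.1% and 80.0% of the class had one. After thinning this was 3 of 11 Edn1-positive WT cells (27.3%) against 20.8% of the class, and 1 of 7 KO cells (14.3%) against 14.7%.

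**Figure D4:**
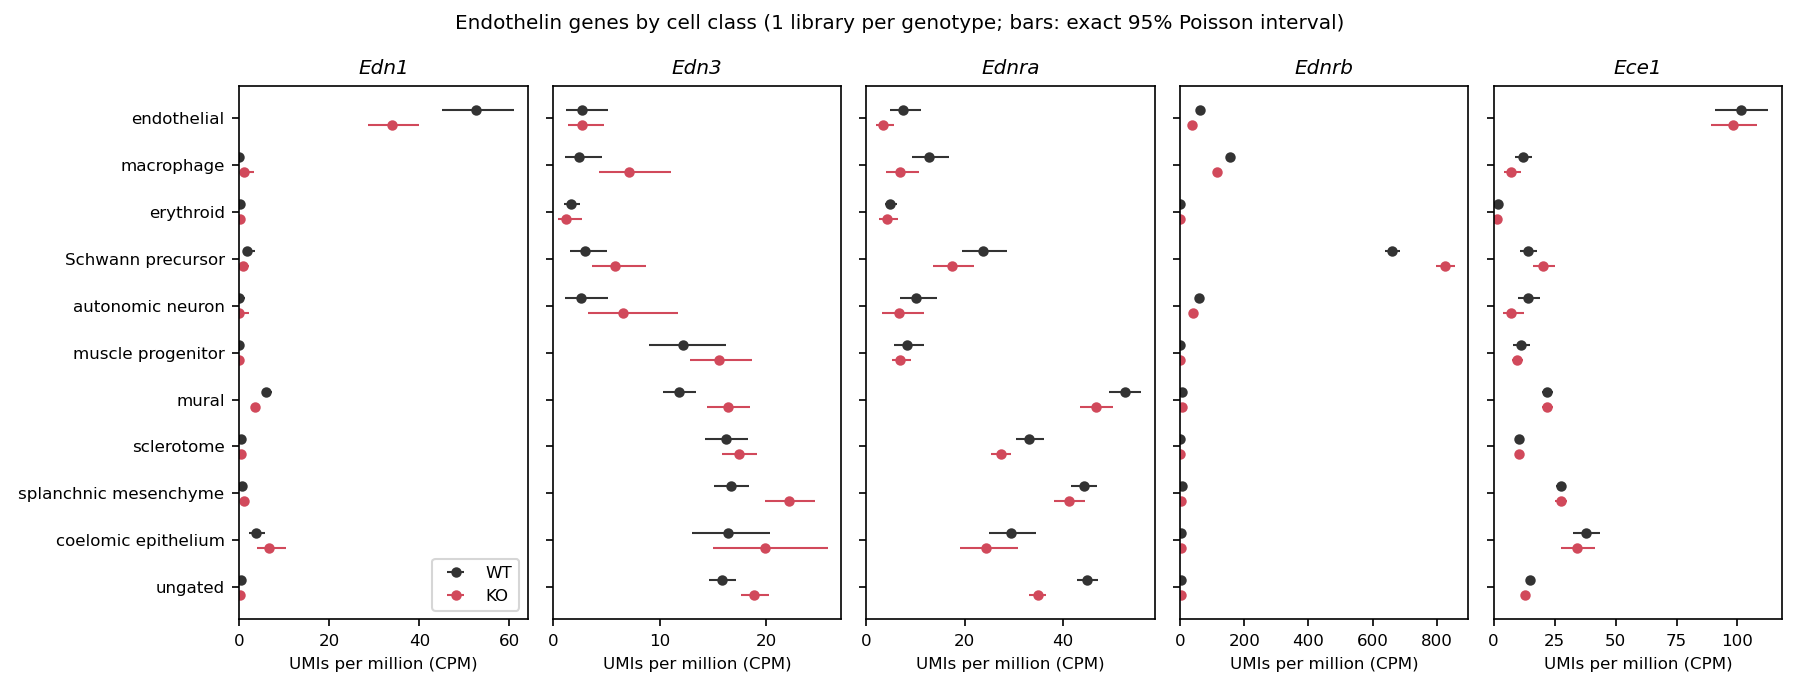
CPM of each gene (horizontal axes, linear from 0, each gene on its own scale) in 10 cell classes and the ungated barcodes, WT in black and KO in red, with exact 95% Poisson intervals. Edn1 and Ece1 peak in endothelial cells, Edn3 and Ednra in the mesenchymal classes and Ednrb in Schwann precursors and macrophages.

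Set against each other, each ligand and the receptor it is best known for had their highest level in different classes. Edn1 peaked in endothelial cells and Ednra in mural cells. Edn3 was spread over mesenchyme, coelomic epithelium and muscle progenitors. Ednrb peaked in Schwann precursors, where Edn3 was at 3.02 CPM in WT against 5.79 CPM in KO. Across the 20 profiles of 10 classes and 2 libraries, Pearson's r of log2(CPM + 1) was 0.0015 for Edn1 with Ednra, -0.46 for Edn3 with Ednrb, 0.70 for Edn3 with Ednra and 0.80 for Edn1 with Ece1. These values describe the profiles, which come in pairs of the same class and share libraries. Within splanchnic mesenchyme, 66.5% of WT cells with an Edn3 UMI had an Ednra UMI, against 51.0% of the class, but after thinning the shares were 8.11% and 8.37%, an excess no longer seen, and in KO they were 3.45% and 5.50%.

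The genes with the most similar profiles, by the highest r among 10966 genes with at least 1000 UMIs, were Adgrf5 (0.95), Cav1 (0.93) and Lims1 (0.90) for Edn1. Adgrf5 and Cav1 are known from endothelium. For Edn3 they were Tpd52l1 (0.94), Plekhh2 (0.93) and Peg3 (0.92), and for Ednra Col5a1 (0.94), a fibrillar collagen, Fzd7 (0.94), a Wnt receptor, and Tenm4 (0.94). For Ednrb they were Gltp (0.89), Smpdl3a (0.89) and Scly (0.88), and for Ece1 Magi3 (0.98), Hdac7 (0.95) and Prickle3 (0.95).

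Between the libraries, no member with at least 50 UMIs passed 1 on the log2 scale over all kept barcodes, in the classes compared or in ungated barcodes. Barcodes that tied between classes, 294 in WT and 289 in KO, stand outside the classes and the ungated barcodes. There Ednrb passed 1 upward (214 against 482 UMIs, 1.27, with a lower 95% limit of 1.03). Edn1 passed -1 there (40 against 16 UMIs, -1.23, -2.16 to -0.36), and Edn3, Ednra and Ece1 did not pass 1 in either direction. Over all kept barcodes 0 of the 5 genes passed it, where 5.24% of the 16113 genes with at least 50 UMIs did. Of 55 gene and class pairs, 34 had at least 50 UMIs, and 0 of these passed it. Within classes the share of all such genes past 1 was 2.09% in endothelial cells, 2.19% in macrophages, 6.22% in erythroid cells, 2.42% in Schwann precursors, 2.87% in autonomic neurons, 2.21% in muscle progenitors, 2.86% in mural cells, 3.11% in sclerotome, 3.26% in splanchnic mesenchyme, 2.7% in coelomic epithelium and 3.51% in ungated barcodes. Over all barcodes Edn1 was lower in KO, at 2.64 against 1.97 CPM, a log2 ratio of -0.43 (-0.65 to -0.20). Edn3 was higher, at 12.6 against 16.6 CPM (0.40, 0.31 to 0.49). Ednra was lower, at 35.4 against 29.8 CPM (-0.25, -0.31 to -0.19), and Ece1 at 20.2 against 18.8 CPM (-0.10, -0.18 to -0.03). Ednrb was at 31.0 against 32.5 CPM (0.07, 0.01 to 0.13). The median of all genes was 0.06.

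**Figure D5:**
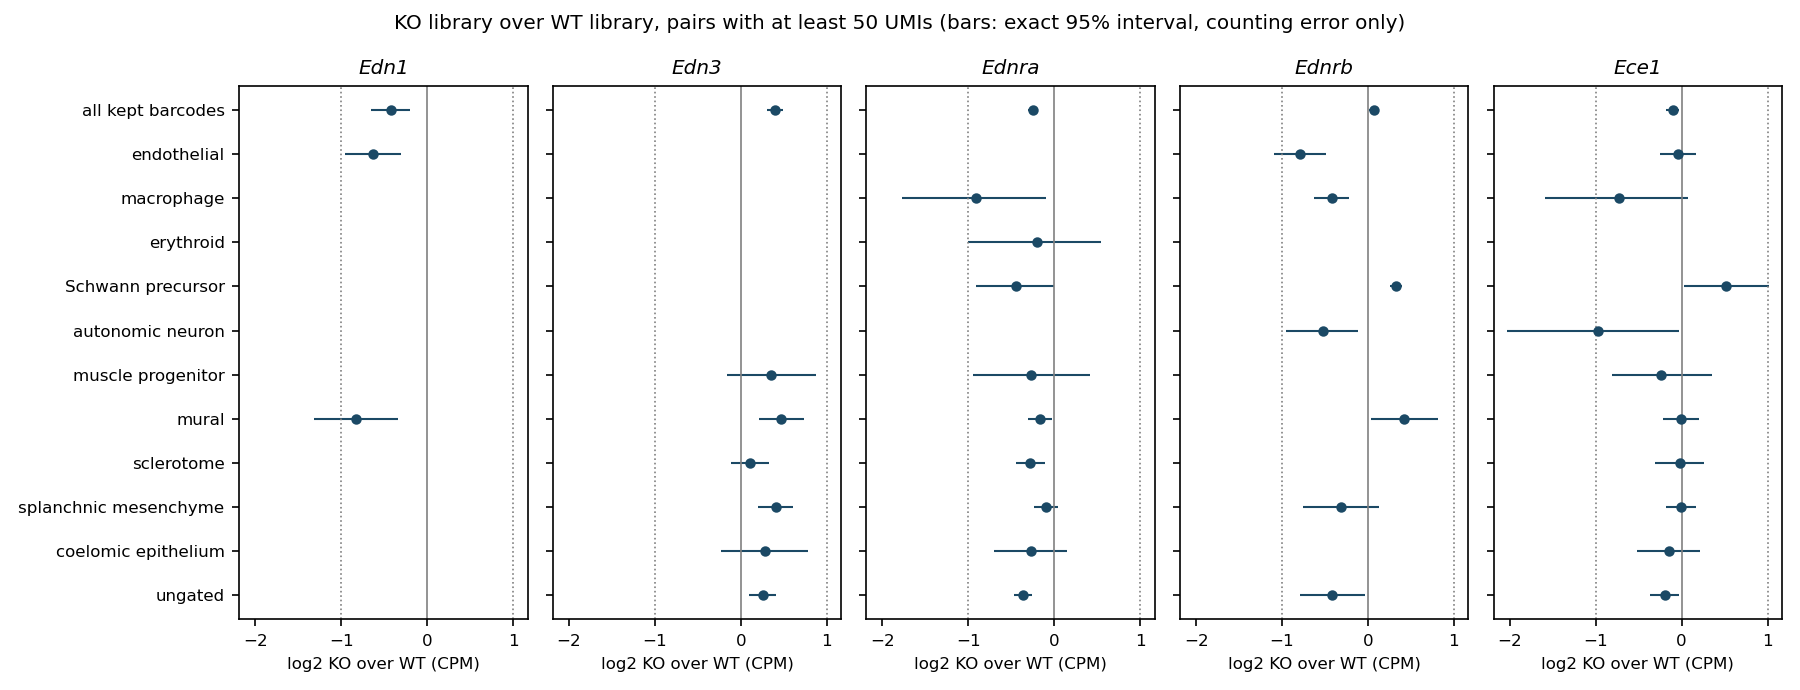
Log2 ratio of KO over WT CPM (horizontal axes) for each gene over all kept barcodes, in each class and in ungated barcodes, for pairs with at least 50 UMIs, with exact 95% intervals of counting error. The dotted lines mark -1 and 1, which no point passes, and Ednrb points lie on both sides of 0.

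By class, Edn3 was higher in KO in each of the 6 classes that could be compared. The ratios ran from 0.11 in sclerotome to 0.47 in mural cells (11.8 against 16.4 CPM, 0.21 to 0.74). The intervals excluded 0 in mural cells, splanchnic mesenchyme (0.41) and ungated barcodes (0.25). They included 0 in sclerotome, coelomic epithelium and muscle progenitors. Of all genes measured, 39.9% in sclerotome to 53.4% in muscle progenitors were below 0 in these 6 classes. Under other settings the Edn3 ratio ran down to -0.95 in sclerotome, -0.55 in coelomic epithelium and -1.51 in muscle progenitors. In splanchnic mesenchyme it was -0.28 after thinning. Thinned barcodes were gated again, which left 92 WT and 56 KO splanchnic cells, 153 and 237 sclerotome cells and 27 and 77 muscle progenitors. With 2000 UMIs per cell, such classes hold only a few Edn3 UMIs, so the sign of a thinned ratio is not resolved there. Ednra was lower in KO in all 9 classes compared, from -0.10 in splanchnic mesenchyme to -0.91 in macrophages, where it rested on 47 and 18 UMIs. Its intervals included 0 in splanchnic mesenchyme, coelomic epithelium, muscle progenitors and erythroid cells. Of all genes with at least 50 UMIs, 39.9% in sclerotome to 68.7% in erythroid cells were below 0 in these classes. In the large classes Ednra was at -0.36 (-0.46 to -0.26) in ungated barcodes, -0.28 in sclerotome and -0.17 (-0.31 to -0.03) in mural cells. In sclerotome it was at 0.37 after thinning. With cells that had a Pdgfrb UMI left out of both libraries, Ednra was higher in KO over all barcodes, at 0.13, and in mural cells, at 0.12. Pdgfrb is the targeted gene, and this filter kept 5464 of 8253 WT but 7364 of 8165 KO barcodes. Of mural cells it kept 220 of 746 in WT and 363 of 515 in KO. The WT stromal cells it removed had the higher Ednra levels (47.9 and 50.5 against 37.1 and 36.7 CPM), so these ratios compare unlike cells.

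Edn1 in mural cells was lower in KO by -0.82 (-1.32 to -0.34), from 116 to 53 UMIs, and of the 3 contractile markers of the class Acta2 was at 2838 against 1914 CPM and Tagln at 1458 against 1109 CPM, both lower in KO, while Myh11 was higher, at 64.5 against 70.2 CPM (0.12, 0.0036 to 0.24). The part of these shifts in the Edn1 ratio was not tested. The ratio took the other sign at a mitochondrial limit of 5% (0.60), which left 152 WT and 93 KO mural cells. It did so too without cells that had an endothelial or Schwann precursor marker (0.18, an alternative chosen after seeing the data). Without cells that had a Pdgfrb UMI it was 0.72, with 220 of 746 WT but 363 of 515 KO mural cells left. That filter acts on the targeted gene and removed the DP cells, where WT Edn1 was highest, so this ratio compares unlike cells. Ednrb had ratios of both signs: 0.32 (0.25 to 0.39) in Schwann precursors and 0.42 (0.03 to 0.81) in mural cells, but -0.79 (-1.10 to -0.49) in endothelial cells, -0.42 (-0.62 to -0.22) in macrophages, -0.53 in autonomic neurons and -0.41 in ungated barcodes. With cells that had a Pdgfrb UMI left out of both libraries, the Schwann precursor ratio was 0.025. This kept 138 of 168 WT and 137 of 142 KO Schwann precursors. Across the settings the neuron ratio ran from -2.47 with the mitochondrial limit at 5% to 0.47 after thinning, and the ungated ratio from -1.89 with free RNA subtracted to 0.47 with the 5% limit. In endothelial cells it was -0.043 without the 5% of barcodes with the most UMIs, and 0.71 with the 5% limit. KO neurons were shallower, with a median of 8951 UMIs against 25028 UMIs. Ece1 ratios lay between -0.15 in coelomic epithelium and -0.0029 in mural cells for endothelial cells, sclerotome and splanchnic mesenchyme as well, each with an interval that included 0. Among the pairs compared, only in Schwann precursors (0.52), autonomic neurons (-0.98) and ungated barcodes (-0.20) did its interval exclude 0.

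The list of 30 other genes of the endothelin pathway also holds partners in enteric neurons and melanocytes, such as Gfra1. All were measured over all barcodes, with a median KO over WT log2 ratio of 0.17 against 0.06 for all genes. None passed 1 upward, where 2.57% of all genes did, and 2 passed -1, where 2.67% did. These were Kel, an erythroid protease that can cleave endothelin-3 precursor (10.9 against 3.19 CPM, -1.77), and Edn2 (67 against 28 UMIs, -1.18). Erythroid cells, which held 1547 of the 1631 WT Kel UMIs, were 8.92% of WT and 2.68% of KO barcodes. The part of this mix in the Kel ratio was not tested. Edn2 was mostly found in coelomic epithelium, with 36 of the 67 WT and 18 of the 28 KO UMIs at 7.03 and 6.27 CPM, a ratio of -0.16.

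In mural cells 25 of the 30 genes were measured, 3 past 1 upward, where 1.28% of all genes were, and 0 past -1, where 1.58% were. These were Dlx5 (2.34 against 8.35 CPM, 1.84, 1.34 to 2.36), Gfra1 (5.50 against 13.4 CPM, 1.29, 0.94 to 1.64) and Dlx6 (0.883 against 2.12 CPM, 1.26, 0.38 to 2.20). Dlx6 rested on 17 against 33 UMIs, and the Gfra1 and Dlx6 intervals reached below 1. Dlx5 and Dlx6 are homeobox genes that act downstream of Edn1 and Ednra in cranial crest mesenchyme, and Gfra1 is the co-receptor of GDNF. In sclerotome 1 of 22 was past 1, where 2.27% of all genes were, again Dlx5 (1.17), and 0 were past -1, where 0.838% were. In splanchnic mesenchyme 0 of 25 passed 1 in either direction, where 1.16% of all genes were higher and 2.1% lower, and in ungated barcodes 0 of 25 did, where 2% were higher and 1.52% lower. Hand2, a transcription factor that also lies downstream of Ednra in the crest, was at 44.1 against 25.9 CPM over all barcodes (-0.77, -0.83 to -0.71). It was lower in KO in the mural class (-0.70), sclerotome (-0.63), splanchnic mesenchyme (-0.39) and ungated barcodes (-0.91), the opposite sign to Dlx5 in the same classes. Among the G protein genes that couple to the receptors, Gnaq was at 0.29 and Gna11 at 0.25, and Gna12 at -0.14. Mme, the neprilysin that degrades endothelins, was at 0.57 (13.0 against 19.3 CPM), and Furin at 0.34 (12.3 against 15.6 CPM).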

How the data were processed

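AGM cells of 1 WT and 1 KO library were measured by 10x Chromium 3′ chemistry. The authors aligned the reads with Cell Ranger 3.1.0 to mm10/GRCm38 and deposited unfiltered UMI counts of every gene and barcode, with no normalization. Counting UMIs at the 3′ end does not scale with transcript length, so levels were compared within a gene only. The count of a gene was summed over the cells of a class and given as CPM with an exact Poisson interval. Shares have exact Clopper-Pearson intervals, and the interval of a ratio of 2 Poisson counts comes from the conditional binomial, all at 95%. A count of 0 has the upper limit of its exact interval, and the level that 3 UMIs give served as a floor. No test was run, and the kept barcodes held 150175081 UMIs in WT and 142222182 in KO, which set the precision.

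The members, the pathway list, the markers and the gates were chosen with earlier results of these data known. Named genes are the members, the pathway list and the 3 genes with the most similar profile per member, leaving out gate markers. Genes that distinguish cells with and without a member UMI were ranked by the smaller of both libraries' log2 ratios of CPM + 10, for genes with at least 20 UMIs. Doublets were not called, but barcodes that tied between classes were left out of the classes. The interval code was checked on simulated counts with known ratios. Megakaryocytes and nephric and gut epithelium had too few cells in a library and are not compared. The analysis used Python 3.11.15, numpy 2.4.6, scipy 1.17.1, pandas 2.3.3, matplotlib 3.10.9, R 4.3.3 and edgeR 4.0.16, the last only for TMM factors. The alternatives changed the UMI and mitochondrial limits, the gate, the scaling, the treatment of free RNA and of deep barcodes, the depth by thinning, and the cells with a Pdgfrb UMI. For thinned levels and ratios of a class the thinned barcodes were gated again, so the class held other and mostly fewer cells. For thinned shares the cells kept the class they had at full depth.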

Additional observations from a re-analysis of the deposited data

Results flagged for a closer look

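Ednrb had KO over WT ratios of opposite sign in different classes, with intervals on both sides of 0, a difference that was not tested because each genotype had 1 library. It was at 0.32 in Schwann precursors and 0.42 in mural cells, against -0.79 in endothelial cells, -0.42 in macrophages, -0.53 in autonomic neurons and -0.41 in ungated barcodes. Ece1 was at 0.52 in Schwann precursors against -0.98 in autonomic neurons and -0.20 in ungated barcodes, also untested.

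Barcodes with at least 500 but under 2000 UMIs entered no comparison other than the setting with a minimum of 1000 UMIs. They carried all 5 genes above the level that 3 UMIs give. In WT these were Edn1 at 1.21 CPM, Edn3 at 4.61, Ednra at 8.44, Ednrb at 7.13 and Ece1 at 6.03. In KO they were Edn1 at 1.36 CPM, Edn3 at 5.45, Ednra at 7.49, Ednrb at 8.28 and Ece1 at 6.01. Barcodes with up to 100 UMIs, taken as free RNA, were higher, with Ednrb at 19.3 CPM in WT against 31.4 CPM in KO.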

How the results depend on the processing

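No paired analysis was possible because each genotype had 1 library, so none was left out. Of 1200 levels recomputed under other settings, 854 stayed within the counting interval of the value reported and 346 moved beyond it, and of 760 KO over WT ratios 646 stayed and 114 moved. The counting error of the recomputed value itself, larger where fewer UMIs were left, was not taken into account. The causes were not tested.

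Over all barcodes (log2, KO over WT), Edn1 was at 0.87 with the mitochondrial limit at 5%, which kept 3600 WT and 2915 KO barcodes, at -0.043 after thinning to 2000 UMIs, and at -0.030 with cells that had an endothelial or Schwann precursor marker left out of other classes. Edn3 was at 0.22 after thinning and 0.75 without cells that had a Pdgfrb UMI in both libraries. Ednra was at -0.17 with the 5% limit, -0.38 with KO cells that had a Pdgfrb UMI left out, 0.13 with such cells left out of both libraries, and -0.31 with TMM as with median-of-ratios factors. Ednrb was at 0.28 and -0.41 with Pdgfrb cells left out of KO and of both, -0.031 with free RNA subtracted, 0.0038 with TMM, 0.0055 with median-of-ratios factors and 0.14 at the WT mix of classes. Ece1 was at -0.026 with the 5% limit, -0.20 as the mean of per-cell CPM, 0.17 without Pdgfrb cells in both libraries and 0.25 without the marker cells. The Pdgfrb settings filter on the targeted gene and remove unlike parts of the libraries, so their ratios compare unlike cells. The study itself took cells with detected PDGFRβ out of its KO data only.

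Among WT levels in CPM, endothelial Edn1 was at 13.9 with the 5% limit, 74.9 as a per-cell mean and 100 after thinning. Endothelial Ece1 was at 76.9, 113 and 129 in the same order. Splanchnic Edn3 was at 10.9 after thinning and 18.6 without the marker cells. Mural Ednra was at 46.4 with the 5% limit, 56.1 with a lead of 2 markers and 60.4 after thinning. Schwann precursor Ednrb was at 467 with the 5% limit, 689 at 4 markers, 824 with a lead of 2 markers, 799.98 as a per-cell mean, 748 without the 5% deepest barcodes, 1250 after thinning, 715 without the marker cells and 717 with free RNA subtracted. Macrophage Ednrb was at 176 with the 5% limit, 177 without the deepest barcodes, 205 after thinning and 188 without the marker cells.

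With the minimum of 50 UMIs applied again in each setting, and leaving aside per-cell means and subtracted free RNA, which have no UMI sums, 3 pairs passed 1 with a lead of 2 markers, which were Ednra (-1.15) and Ece1 (-1.14) in macrophages and Ednrb in autonomic neurons (-1.07), and 1 passed it after thinning, Ednrb in macrophages (-1.41). Without that minimum, 17 of the 34 pairs compared passed 1 under at least 1 setting, among them Ednrb in endothelial cells (-1.19) and Ece1 in Schwann precursors (1.11). The marker-cell and class-mix settings were chosen after seeing the data.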
